A study of Mus musculus with 2 samples.

Results

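Cycling T cells are T lymphocytes caught in the course of DNA copying or division. The members were chosen by their own UMI counts, as barcodes with at least 3 unique molecular identifiers (UMIs) of Mki67 and Top2a together, at least 1 UMI of Cd3e or Cd3g, none of Cd79a, Epcam or Lyz2, and under 20% of UMIs from Igha, Igkc and Jchain. A barcode was kept with 500 or more UMIs, 200 or more genes and no more than 10% of UMIs from mitochondrial genes. This gave 911 cells of 24391 barcodes that passed the 3 quality limits, out of 25660 deposited. CD163_FL held 804 of them and CD163_NC held 107. Each cell was then placed in a lineage class by its UMIs of Cd8b1, Cd4, Foxp3 and Trdc. The genes of the rule are described below and were not tested.

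The cells came from mouse gut lamina propria, with the label CD45+, the marker shared by leukocytes, and the protocol describes colon tissue. There were 2 libraries, CD163_FL and CD163_NC, made with 10x 3' chemistry from cells of a Percoll interphase after dead cells were removed. The title speaks of wild-type animals and of animals without CD163+ macrophages, but no label ties either library to either kind of mouse, and age, sex and the number of animals are not given in the labels. With 1 library per group no difference here has a replicate check, intervals are 95% and cover counting error only, and mouse, preparation and library cannot be told apart.

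T cells of the gut wall are mostly resting effector and memory cells. On meeting antigen and growth signals such as interleukin 2, a T cell enters the cycle, makes the helicase and nucleotide enzymes of S phase under E2F transcription factors, and then the kinases and spindle proteins of G2 and mitosis. CD8 T cells kill through granzymes and perforin, CD4 helper cells act mainly through cytokines, and Foxp3-positive regulatory cells restrain them. Gamma delta T cells carry another receptor, marked by Trdc.

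The members of CD163_FL held a median of 13539 UMIs per cell (11746461 in all) and those of CD163_NC a median of 10546 (1301008 in all). Non-cycling T cells, which passed the same gate with no UMI of Mki67 or Top2a, had medians of 6204 and 5330 UMIs in CD163_FL and CD163_NC. The libraries shared 49 barcodes, none of them a member of both. Scrublet called 22 members of CD163_FL (2.74%) and 0 of CD163_NC doublets, but it called fewer barcodes than expected in each whole library, 4.40% against 12.2% in CD163_FL and 2.47% against 8.31% in CD163_NC. Of barcodes with 3 or more Mki67 and Top2a UMIs and a Cd3 UMI, 68.2% were members in CD163_FL and 33.3% in CD163_NC. The others carried Cd79a, Epcam, Lyz2 or immunoglobulin UMIs.

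Stmn1 and Pclaf, cell cycle markers that the rule did not use, checked the name of the set. Stmn1, which destabilises microtubules, had a UMI in 88.6% of members of CD163_FL (86.2 to 90.7%) and in 62.6% of members of CD163_NC (52.7 to 71.8%), against 18.0% and 13.3% of their non-cycling T cells. Pclaf, which binds the replication clamp PCNA, had one in 82.0% of members of CD163_FL and in 55.1% of members of CD163_NC, against 4.72% and 3.04% of non-cycling T cells. Non-cycling Ighd-positive B cells, a background for free RNA with median depths of 4431 and 5269 UMIs, showed Stmn1 in 11.8% and 11.9% and Pclaf in 1.03% and 3.54%. With every cell thinned to 3000 UMIs, Stmn1 stood in 66.2% of members of CD163_FL and 49.5% of members of CD163_NC, and Pclaf in 60.0% and 41.9%. The rule itself required a Cd3 UMI, so the levels of these genes only describe the members, with Cd3e at 301 UMIs per 1000000 UMIs of the set (CPM) in CD163_FL and 457 CPM in CD163_NC, and Cd3g at 384 and 510 CPM. Rag1, Rag2 and Dntt, which are active in developing thymocytes, were at 0 in both libraries.

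The libraries differed in these markers at the lower edge of the rule and for some way above it. Members with exactly 3 UMIs of Mki67 and Top2a were 120 of 804 in CD163_FL and 34 of 107 in CD163_NC. Stmn1 was seen in 58.3% of those in CD163_FL and in 20.6% of those in CD163_NC, beside 41.0% and 20.4% of the T cells with 2 UMIs just outside the rule. At 4 UMIs Stmn1 was seen in 84.6% of members of CD163_FL and 58.3% of members of CD163_NC, and at 5 to 9 UMIs in 90.1% and 61.9%, with Pclaf there in 81.9% and 57.1%. Among members with 10 or more UMIs, 363 in CD163_FL and 40 in CD163_NC, Stmn1 was seen in 98.3% and 100% and Pclaf in 97.0% and 95%. Shares are given below also with a minimum of 5 UMIs, which left 606 and 61 cells.

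Dividing T cells were more frequent in CD163_FL, at 5.59% of its barcodes (5.22 to 5.98%) against 1.07% of those of CD163_NC (0.877 to 1.29%), a ratio of 5.23 (4.28 to 6.39). Among T cells they were 804 of 6136, or 13.1%, in CD163_FL and 107 of 2595, or 4.12%, in CD163_NC, a ratio of 3.18 (2.61 to 3.87). T cells as a whole were 42.7% of barcodes in CD163_FL and 25.9% in CD163_NC. Cycling plasma cells ran the other way, at 0.932% of barcodes in CD163_FL and 1.48% in CD163_NC, a ratio of 0.630 (0.4997 to 0.795). Of cycling barcodes with a Cd3 UMI, the exclusions of the rule kept 804 of 1179 in CD163_FL and 107 of 321 in CD163_NC. With up to 1 UMI each of Cd79a, Epcam and Lyz2 allowed, the ratio among barcodes was 4.23 (3.59 to 4.99), so its size depended on the exclusions. The ratio among T cells was then 2.87 (2.44 to 3.38). The ratio among T cells was 4.20 with a minimum of 5 UMIs and 2.13 with a minimum of 2. With cells thinned to 3000 UMIs it was 2.98, and 1.35 when 1 UMI of the thinned cell was enough, a rule that also took 15.8% of the T cells of CD163_NC.

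The lineage of the dividing cells differed as well. In CD163_FL the CD8 class, with Cd8b1 and without Cd4, Foxp3 or Trdc, held 393 of 804 members (48.9%, 45.4 to 52.4%), whereas in CD163_NC it held 19 of 107 (17.8%, 11.04 to 26.3%). The CD4 class, with Cd4 and without Foxp3, Cd8b1 or Trdc, held 252 members (31.3%) in CD163_FL and 52 (48.6%) in CD163_NC. The Foxp3 class held 6 members (0.746%) in CD163_FL and 10 (9.35%) in CD163_NC. The gamma delta class held 2 members in CD163_FL and 1 in CD163_NC. A mixed class with conflicting genes held 62 and 9, and 89 and 16 carried none of the 4 genes.

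The non-cycling T cells put these shares in context. Among them the CD8 class was 30.9% in CD163_FL and 18.3% in CD163_NC, and the CD4 class 31.4% and 41.0%. Cells with none of the genes were 30.0% and 31.8%, larger shares than among the deeper members. At full depth, then, the CD8 class was in CD163_FL a larger share of dividing than of resting T cells. In CD163_NC the shares were 17.8% and 18.3%, inside each other's counting error. At a fixed 3000 UMIs, Cd8b1 was seen in 34.3% of members of CD163_FL (31.0 to 37.7%) and in 15.2% of members of CD163_NC (8.97 to 23.6%). Cd4 was seen in 20.7% and 42.9% of them. Non-cycling T cells at that depth showed Cd8b1 in 25.1% (23.7 to 26.5%) and 17.4% (15.7 to 19.3%), and Cd4 in 25.05% and 34.25%. The Cd8b1 difference in CD163_FL was thus smaller at equal depth than that of the class shares. When the whole rule was applied to thinned cells, which left 310 and 47 members, the CD8 class was 31.0% in CD163_FL and 23.4% in CD163_NC, a ratio of 1.32 (0.769 to 2.28) against 2.75 (1.82 to 4.16) at full depth. In Ighd-positive B cells, which do not express these genes, Cd8b1 was seen in 2.65% and 0.691% of cells of CD163_FL and CD163_NC and Cd4 in 1.91% and 1.64%.

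**Figure D1:**
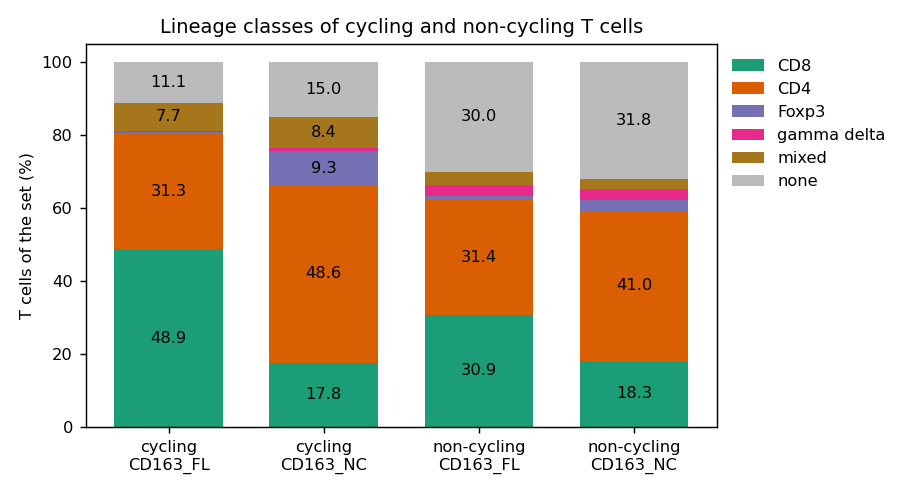
Stacked bars give the share of cells (%) in each lineage class for cycling and non-cycling T cells, with CD163_FL left of CD163_NC in each pair and values printed for shares over 5%. The CD8 class is 48.9% of cycling T cells in CD163_FL and 17.8% in CD163_NC.

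Read the other way, the dividing share within each lineage was higher in CD163_FL for both large classes. In the CD8 class 18.8% of T cells were cycling in CD163_FL (17.2 to 20.6%) and 3.99% in CD163_NC (2.42 to 6.16%), a ratio of 4.72 (3.01 to 7.40). In the CD4 class 12.8% were cycling in CD163_FL (11.4 to 14.4%) and 4.71% in CD163_NC (3.54 to 6.13%), a ratio of 2.72 (2.04 to 3.64). The CD8 class divided more often than the CD4 class in CD163_FL, by a ratio of 1.47 (1.27 to 1.70), and the same ratio was 0.847 (0.507 to 1.42) in CD163_NC, where the interval spans 1. In thinned cells the CD8 ratio between libraries was 2.46 (1.33 to 4.54) and with a minimum of 5 UMIs the CD4 ratio was 4.16 (2.76 to 6.27). Thinned CD8 and CD4 cells of CD163_NC were cycling at 2.75% and 1.82%, from 11 and 15 members. With a minimum of 5 UMIs these classes were at 2.94% and 2.26%, so their order in CD163_NC depended on the setting.

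The small classes gave few cells. In the Foxp3 class 6 of 66 cells were cycling in CD163_FL (9.09%, 3.41 to 18.7%) and 10 of 79 in CD163_NC (12.7%, 6.24 to 22.05%), a ratio of 0.718 (0.276 to 1.87). The lower Foxp3 share of members in CD163_FL thus stood beside fewer Foxp3 cells in all, with 1.04% of non-cycling T cells in CD163_FL and 2.94% in CD163_NC. Of gamma delta cells, 2 of 154 were cycling in CD163_FL (1.30%, 0.158 to 4.61%) and 1 of 70 in CD163_NC (1.43%, 0.0362 to 7.70%). These were the lowest of the 6 class shares in each library, with wide intervals from few cells. The class left out cells that also held another lineage gene. A Trdc UMI was seen in 15 members of CD163_FL, 10 of them with Cd8b1 and 4 with Cd4, and in 2 members of CD163_NC. Non-cycling T cells with a Trdc UMI numbered 181 and 80, so the low share in CD163_FL rested in part on the class rule.

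**Figure D2:**
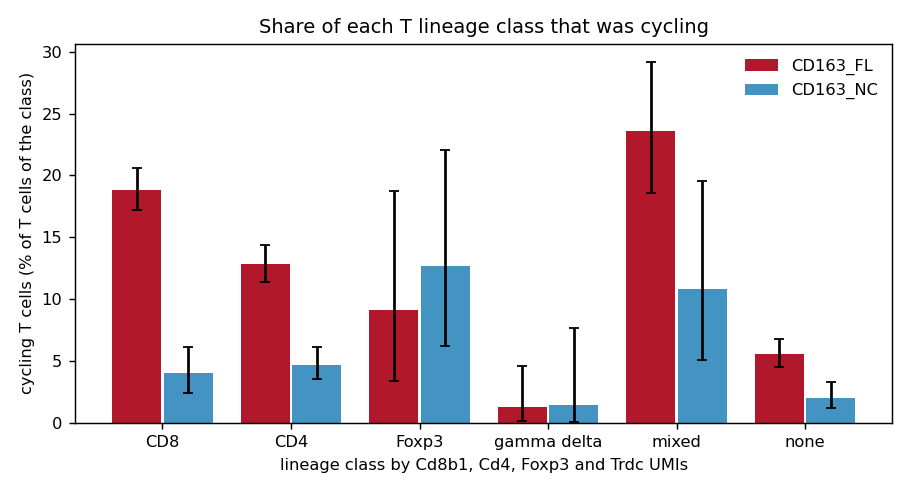
Bars give the cycling share (%) of the T cells of each lineage class in CD163_FL (red, left) and CD163_NC (blue, right), with exact binomial intervals from counting error. The bars of the CD8 and CD4 classes stand at 18.8% and 12.8% in CD163_FL and at 3.99% and 4.71% in CD163_NC.

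The cells were spread over the cycle. A list of 27 S phase genes and a list of 35 G2 and mitosis genes were summed in each cell, and the share of G2/M UMIs in the sum served as a position. Pooled over cells it was 48.8% in CD163_FL and 53.9% in CD163_NC, and its median over cells was 50% and 46.8%. The pooled and per-cell values thus ordered the libraries differently. Under 33.3%, an S range, lay 186 members of CD163_FL and 31 of CD163_NC. Over 66.7%, a G2/M range, lay 186 and 23. These ranges are cuts of a continuous score, with 251 and 33 cells within 5 points of a limit. In CD163_FL the CD8 and CD4 classes gave pooled values of 49.4% and 49.0%. Cycling plasma cells stood at 63.0% in CD163_FL and 62.2% in CD163_NC.

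**Figure D3:**
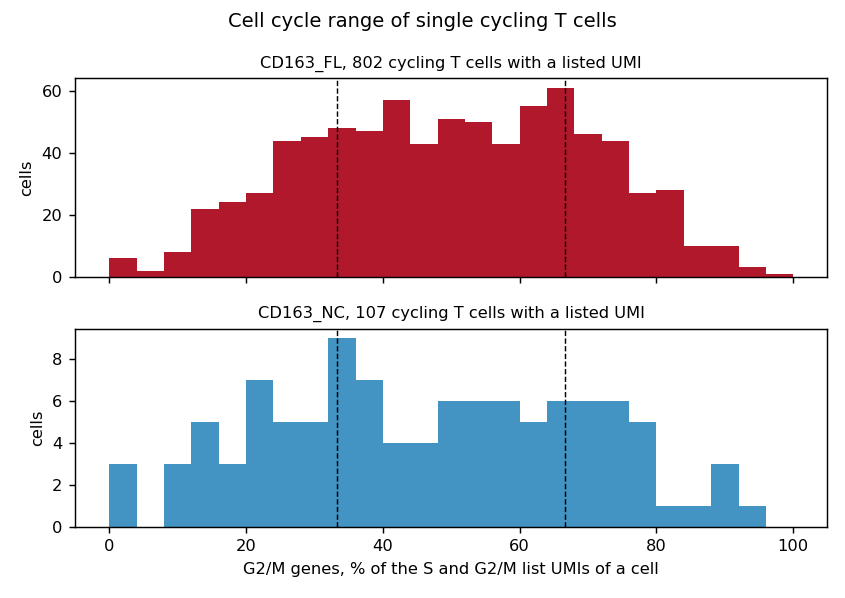
Histograms of the G2/M share (%) of S and G2/M list UMIs in single cycling T cells, CD163_FL above and CD163_NC below, with cell numbers on the vertical axes and dashed lines at 33.3% and 66.7%. Cells spread over most of the range in both libraries, up to 100% in CD163_FL and 93.8% in CD163_NC. No gap lies between an S and a G2/M group.

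The cell cycle genes were high in members of both libraries. Each of the 27 S phase genes was at least 1.5-fold higher in cycling than in non-cycling T cells in CD163_FL, where 19% of 13580 measured genes were, and 26 of 27 were in CD163_NC, where 19.9% of 11573 were. All 35 G2/M genes were higher in each library, with median log2 ratios of 4.04 in CD163_FL and 3.89 in CD163_NC. The interval lay wholly past 1.5-fold for all 27 and all 35 genes in CD163_FL, beside 9.51% of measured genes, and for 24 and 34 of them in CD163_NC, beside 6.19%. Division was part of how these cells were chosen, so these counts are a description. Among the 10 genes with the largest ratios outside the lists in CD163_FL were Lrr1 at 10.5 CPM in cycling and 0.0353 CPM in non-cycling cells, Hist1h2af, a replication-dependent histone, at 10.1 and 0.0353 CPM, the mitotic kinase gene Pbk at 7.49 and 0.0706 CPM, and Nuf2, of the kinetochore, at 20.1 and 0.353 CPM. Esco2, which links sister chromatids, stood at 26.1 and 0.459 CPM. Among the 10 genes with the smallest ratios were Sfrp1, Igfbp5, Dkk3, Abi3bp and Cxcl12, known from stromal cells, with 1 to 5 UMIs each in members.

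Pooled over members, the cell cycle genes differed little between the libraries. No S phase gene was at least 1.5-fold higher in CD163_FL and 1 was lower, beside 13.7% of 11361 measured genes higher and 17.3% lower. Of the 35 G2/M genes none was higher and 3 were lower, namely Plk1 at 15.9 CPM in CD163_FL and 31.5 CPM in CD163_NC, Cenpf at 57.0 and 97.6 CPM, and Hmmr at 35.7 and 66.1 CPM. The sums of the S list were 3014 CPM in CD163_FL and 2667 CPM in CD163_NC, and those of the G2/M list 2874 and 3115 CPM. Members with exactly 3 Mki67 and Top2a UMIs had G2/M sums of 1216 CPM in CD163_FL and 622 CPM in CD163_NC. Those with 10 or more had 3608 and 4884 CPM, so the pooled values hid opposite differences. Ccnd2, a cyclin of early G1, was at 99.3 CPM in CD163_FL and 216 CPM in CD163_NC (log2 ratio -1.12, -1.31 to -0.93).

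The upstream sequence of a few of these genes is shown because both lists were higher in members than in non-cycling T cells. Promoters of late cell cycle genes are known for the cell cycle homology region (CHR) and CCAAT boxes, and those of replication genes for E2F sites. Capitals mark the letters of the CHR (TTTGAA), the CCAAT box (CCAAT) and E2F-like sites (TTTGGCGC, TTTCGCGC, TTTCCCGC and TTTGGCGG), each on either strand, and neighbouring matches may overlap. Each line holds the 150 bases before the start of the gene, read along the gene's strand, from RefSeq on GRCm38.p6.
Mki67, chr7:135716380-135716529, minus strand: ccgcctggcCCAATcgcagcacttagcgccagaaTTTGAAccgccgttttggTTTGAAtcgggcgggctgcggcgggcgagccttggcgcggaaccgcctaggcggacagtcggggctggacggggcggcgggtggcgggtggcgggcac
Top2a, chr11:99024190-99024339, minus strand: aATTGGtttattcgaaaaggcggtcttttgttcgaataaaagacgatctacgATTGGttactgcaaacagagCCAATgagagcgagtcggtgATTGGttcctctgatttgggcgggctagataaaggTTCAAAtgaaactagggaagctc
Cdk1, chr10:69352913-69353062, minus strand: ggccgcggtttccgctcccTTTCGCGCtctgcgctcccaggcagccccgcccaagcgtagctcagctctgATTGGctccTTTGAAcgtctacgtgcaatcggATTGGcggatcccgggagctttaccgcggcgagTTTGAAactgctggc
Ccnb1, chr13:100786487-100786636, minus strand: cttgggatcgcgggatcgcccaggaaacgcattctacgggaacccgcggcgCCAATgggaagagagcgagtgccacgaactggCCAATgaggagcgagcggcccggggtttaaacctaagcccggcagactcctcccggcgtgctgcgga
Mcm5, chr8:75109359-75109508, plus strand: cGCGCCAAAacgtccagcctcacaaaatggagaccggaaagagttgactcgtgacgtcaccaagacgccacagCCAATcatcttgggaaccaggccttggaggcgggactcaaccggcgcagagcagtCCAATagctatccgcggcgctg
Mcm6, chr1:128359706-128359855, minus strand: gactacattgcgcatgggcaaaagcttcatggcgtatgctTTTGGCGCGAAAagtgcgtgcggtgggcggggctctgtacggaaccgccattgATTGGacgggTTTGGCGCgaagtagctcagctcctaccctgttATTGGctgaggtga

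The mitotic kinase gene Cdk1 and the 2 genes of the rule each held a CHR, 2 in Mki67, 1 in Top2a and 2 in Cdk1, whereas the mitotic cyclin gene Ccnb1 and the helicase genes Mcm5 and Mcm6 held none. Mcm6 held 3 E2F-like matches, Mcm5 and Cdk1 1 each, and Mki67, Top2a and Ccnb1 none. Over 250 bases before the start, a CHR was found for 10 of the 31 G2/M genes with a sequence (32.3%), 3 of 23 S phase genes (13.0%) and 18.3% of all 27025 genes. CCAAT boxes were found for 77.4% of the G2/M genes, 60.9% of the S phase genes and 37.5% of all genes. E2F-like matches were found for 1 of the G2/M genes, 7 of the S phase genes (30.4%) and 2.26% of all genes. A match describes letters and not a bound site.

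Several cytotoxic genes were higher in the dividing cells of CD163_FL. Gzmb, a granzyme of killer cells, was at 1461 CPM in CD163_FL and 631 CPM in CD163_NC, and was seen in 706 of 804 and 55 of 107 members (log2 ratio 1.21, 1.11 to 1.31). Gzmk, another granzyme, was at 134 and 53.0 CPM (1.33, 0.99 to 1.70), and Prf1, the pore-forming perforin, at 38.4 and 9.22 CPM (2.06, 1.24 to 3.02). Klrc1 and Klrk1, the receptors NKG2A and NKG2D, were at 226 and 55.9 CPM in CD163_FL and at 56.1 and 16.1 CPM in CD163_NC. Of 16 listed genes, 5 had an interval wholly past 1.5-fold higher and 2 wholly past it lower, beside 2.19% and 4.15% of measured genes. The lower ones were the chemokine genes Ccl4, at 141 CPM in CD163_FL and 331 CPM in CD163_NC, and Xcl1, at 33.0 and 109 CPM. In CD163_NC 1 cell held 78.2% of the Xcl1 UMIs, and without the top cell of each library its log2 ratio was -0.08.

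The larger CD8 share of CD163_FL moved with these pooled values, so levels were also taken within a class. In the CD8 class Gzmb stood at 1894 CPM in CD163_FL and 1758 CPM in CD163_NC, and Gzmk at 211 and 178 CPM. In the CD4 class Gzmb stood at 948 CPM in CD163_FL and 267 CPM in CD163_NC. It was seen there in 206 of 252 and 24 of 52 cells. These CD4 cells had median depths of 13551.5 and 8476.5 UMIs. Their medians of Mki67 and Top2a UMIs were 9 and 4, against 9 and 13 in the CD8 class. A minimum of 5 such UMIs left 185 and 25 CD4 cells. The same CD4 cells gave the CD4 class values below, and the part of this unlikeness in them was not tested. Gzma, the third granzyme, was at 1284 CPM in the CD8 class of CD163_FL and 4574 CPM in that of CD163_NC, where 1 of the 19 cells held 57.8% of it. In the CD4 class Gzma was at 117 CPM in CD163_FL, with 42 of 252 cells holding a UMI, and at 5.41 CPM in CD163_NC, with 3 of 52. The log2 ratios of Gzmb were thus 0.11 in the CD8 class and 1.83 in the CD4 class, and Klrc1 was higher in both, at 1.56 and 1.31.

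Receptors of type 1 cells went the same way. Il18rap and Il18r1, the chains of the interleukin 18 receptor, were at 274 and 467 CPM in CD163_FL and at 96.8 and 198 CPM in CD163_NC, with log2 ratios of 1.5 (1.24 to 1.77) and 1.24 (1.06 to 1.43). Within the CD8 class these ratios were 2.17 and 2.49 and within the CD4 class 1.13 and 1.18. The cytokine gene Ifng was at 323 CPM in CD163_FL and 374 CPM in CD163_NC, and Tbx21, the type 1 regulator, at 82.9 and 112 CPM, both within 1.5-fold. Of the 9 genes 3 had an interval wholly past 1.5-fold higher and none lower, beside 2.19% and 4.15% of all measured genes.

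**Figure D4:**
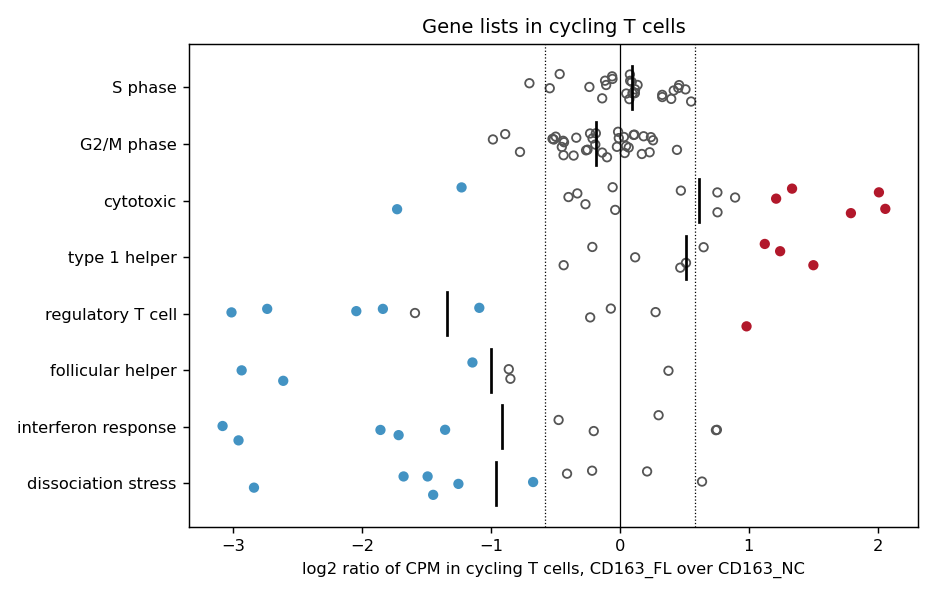
Each point is a gene of a list, placed by its log2 ratio of CPM in cycling T cells, CD163_FL over CD163_NC, with filled points where the counting interval lies wholly past 1.5-fold (dotted lines) and black bars at list medians. S phase and G2/M genes gather near 0, cytotoxic and type 1 genes extend to the right, up to 2.06 for Prf1, and regulatory, follicular, interferon and stress genes to the left.

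Some regulatory T cell genes were lower in CD163_FL. Foxp3, their defining factor, was at 4.001 CPM in CD163_FL, in 9 members, and at 32.3 CPM in CD163_NC, in 12 members (log2 ratio -3.01, -3.64 to -2.38). Izumo1r, folate receptor 4, was at 12 and 79.9 CPM, Capg, an actin-capping protein, at 30.3 and 108 CPM, and Il10 at 39.5 and 163 CPM, with 40.1% of Il10 UMIs of CD163_NC in 1 cell. Of 10 measured genes 5 had an interval wholly past 1.5-fold lower and 1 higher, beside 4.15% and 2.19% of all measured genes. Much of the difference was smaller inside the CD4 class, but its rule had left out every cell with a Foxp3 UMI. A smaller difference there therefore does not describe CD4 cells as a whole. In this class Capg was at 42.6 CPM in CD163_FL and 48.7 CPM in CD163_NC. The regulatory factor gene Ikzf2 was at 331 and 410 CPM, and Il10 at 62.8 and 115 CPM. Izumo1r was at 27.2 and 72.2 CPM there. The higher one was Il2ra, the alpha chain of the interleukin 2 receptor, which activated T cells also carry, at 244 CPM in CD163_FL and 124 CPM in CD163_NC. Within classes its log2 ratio was 3.33 in the CD8 class, where 6 UMIs were counted in CD163_NC, and 1.32 in the CD4 class.

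Some follicular helper genes, of CD4 cells that help B cells, were lower too. Il21 was at 11.3 CPM in CD163_FL, in 57 members, and at 69.2 CPM in CD163_NC, in 26 members (log2 ratio -2.61, -3.01 to -2.21). Cxcr5, which guides cells to B cell follicles, was at 3.32 and 25.4 CPM, and the factor Maf at 293 and 646 CPM. Inside the CD4 class Il21 was still at 28.6 CPM in CD163_FL and 135 CPM in CD163_NC, while Maf was at 721 and 835 CPM. Of the 6 genes 3 had an interval wholly past 1.5-fold lower, beside 4.15% of all measured genes, and none higher. Tox, a factor of chronically stimulated T cells, was at 274 CPM in CD163_FL and 596 CPM in CD163_NC, yet at 129 and 57.0 CPM within the CD8 class, so its direction turned with the class.

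Genes of naive and recirculating T cells split. S1pr1, which lets cells leave tissue along sphingosine phosphate, was at 160 CPM in CD163_FL and 42.3 CPM in CD163_NC (log2 ratio 1.92, 1.54 to 2.34), and Lef1 at 244 and 135 CPM. Tcf7, a factor of naive and memory cells, was at 51.5 and 160 CPM and Ccr7 at 46.9 and 128 CPM. Ccr7 was about level within the CD8 class, with a log2 ratio of 0.036. Of 10 measured residence and gut homing genes 3 had an interval wholly past 1.5-fold higher and 1 lower, beside 2.19% and 4.15% of all measured genes. The higher ones were Ccr9 at 51.6 CPM in CD163_FL and 20.8 CPM in CD163_NC, Cxcr6 at 287 and 150 CPM and Itga4 at 648 and 387 CPM. The lower one was Itgae, the alpha E integrin that holds cells at epithelium. It was at 10.05 CPM in CD163_FL, in 59 members, and at 59.2 CPM in CD163_NC, in 14 members. In the CD8 class it was at 10.0 and 210 CPM, from 33 of 393 and 7 of 19 cells. Its log2 ratio over all members was -2.56, and -0.71 (-1.84 to 0.60) in cells thinned to 3000 UMIs, where the interval spans 0.

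Some genes of recent activation and of handling also differed. Of 14 genes of the antigen receptor response list, 5 had an interval wholly past 1.5-fold lower and 1, Il2ra, higher, beside 4.15% and 2.19% of all measured genes, and the other 8 lay within 1.5-fold. The list sums were 3831 CPM in CD163_FL and 4030 CPM in CD163_NC. Among the lower ones, Nr4a1, Nr4a3, Egr1 and Cd69, induced through the T cell receptor, were at 211, 185, 137 and 202 CPM in CD163_FL and at 385, 385, 274 and 398 CPM in CD163_NC. Fos, a gene that cell isolation also induces, was at 48.3 CPM in CD163_FL and 345 CPM in CD163_NC (log2 ratio -2.84, -3.02 to -2.66), and 6 of 10 genes of the dissociation list had intervals wholly past 1.5-fold lower, beside 4.15% of all measured genes. Non-cycling T cells showed Fos at 82.5 CPM in CD163_FL and 505 CPM in CD163_NC. The heat shock genes Hspa1a and Hspa1b were at 124 and 141 CPM in CD163_FL and at 107 and 90.7 CPM in CD163_NC. Whether handling bears on the activation genes was not tested.

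Some interferon-induced genes were lower in CD163_FL as well. Ifi27l2a was at 456 CPM in CD163_FL and 3649 CPM in CD163_NC (log2 ratio -3.00, -3.06 to -2.94), in 645 of 804 and 103 of 107 members. Non-cycling T cells gave 587 and 2989 CPM. Rtp4 was at 6.21 CPM in CD163_FL, in 60 members, and at 57.7 CPM in CD163_NC, in 47 members. Bst2, which tethers virus particles, was at 66.8 and 242 CPM and Isg15, a ubiquitin-like protein, at 110 and 281 CPM. Of 10 measured genes of the list 5 had an interval wholly past 1.5-fold lower and none higher, beside 4.15% and 2.19% of all measured genes. The guanylate-binding protein genes Gbp2 and Gbp5 were at least 1.5-fold higher, at 83.7 and 19.4 CPM in CD163_FL and at 49.96 and 11.5 CPM in CD163_NC, without such an interval.

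**Figure D5:**
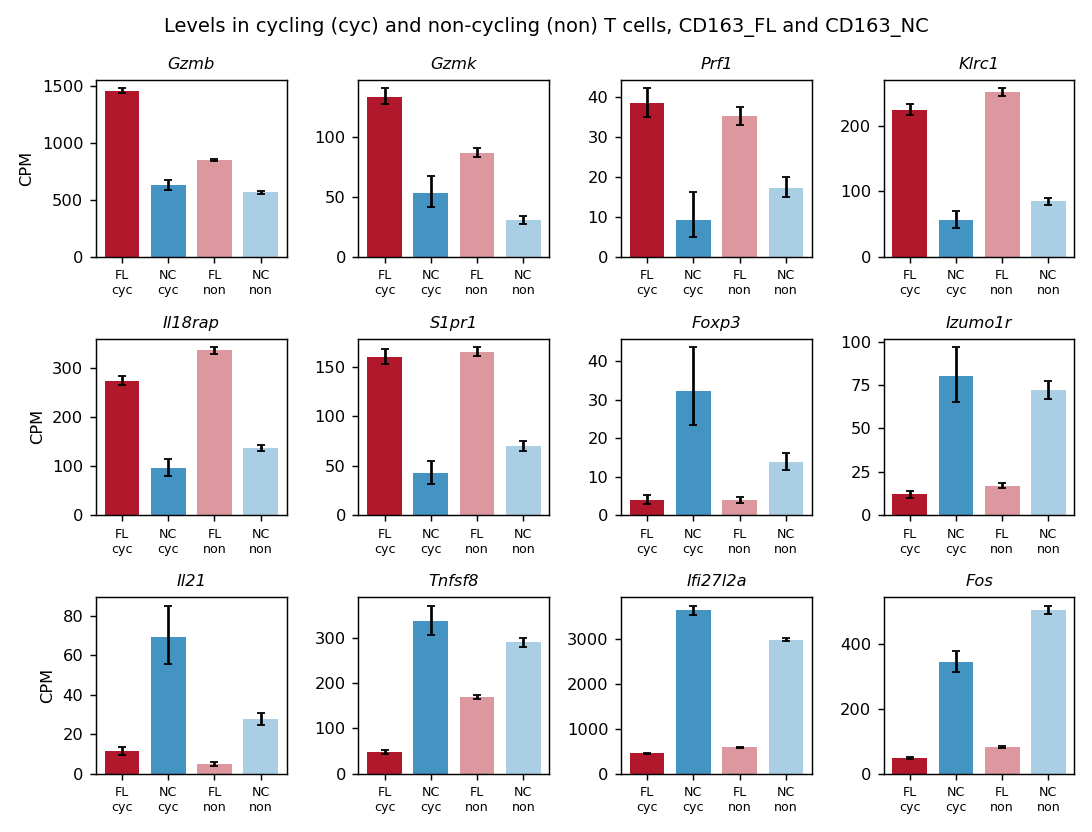
Bars give CPM with exact Poisson intervals for 12 genes in cycling (cyc) and non-cycling (non) T cells, CD163_FL in red left of CD163_NC in blue in each pair. Gzmb is at 1461 and 631 CPM in cycling cells of CD163_FL and CD163_NC, Ifi27l2a at 456 and 3649 CPM, and the non-cycling pairs of these genes differ in the same direction.

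Survival and growth-signal genes were mixed. Bcl2l11, which promotes cell death, was at 406 CPM in CD163_FL and 154 CPM in CD163_NC (log2 ratio 1.40, 1.20 to 1.61), and Bcl2, which opposes it, at 69.0 and 130 CPM. Bcl2 was 0.35 higher on the log2 scale within the CD8 class and 0.77 lower within the CD4 class. Il15ra was at 32.2 CPM in CD163_FL and 12.3 CPM in CD163_NC, and Socs1, a brake on cytokine signals, at 26.05 and 60.7 CPM. None of the 9 glycolysis genes and none of the 10 nucleotide synthesis genes had an interval wholly past 1.5-fold in either direction. Of all measured genes 2.19% had one higher and 4.15% lower, so lists this short may hold none. Pdcd1, the checkpoint receptor PD-1, was at 66.4 and 33.8 CPM and Lag3 at 35.8 and 88.4 CPM in CD163_FL and CD163_NC.

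Within CD163_FL the dividing CD8 and CD4 classes differed in effector genes. Of 10570 measured genes, 234 (2.21%) had an interval wholly past 1.5-fold higher in the CD8 class and 383 (3.62%) lower, and in CD163_NC 92 (1.61%) and 249 (4.37%) of 5699 did. In the CD8 class, against the CD4 class, Gzmk was at 211 and 33.1 CPM, Eomes at 50.03 and 2.69 CPM and Klrd1 at 105 and 19.4 CPM. Tnfrsf4, the receptor OX40, was at 19.5 CPM in the CD8 class and 541 CPM in the CD4 class, Maf at 33.9 and 721 CPM, Ifng at 219 and 494 CPM, and Areg, an epidermal growth factor family member, at 9.33 and 149 CPM. Il17a was at 3.22 CPM in the CD8 class and 66.0 CPM in the CD4 class, where 16 of 252 cells held it and 1 held 46.1%. Mki67 was at 371 CPM in the CD8 class and 384 CPM in the CD4 class, a gene of the rule that differed little between the classes.

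Across all measured genes, 249 had an interval wholly past 1.5-fold higher in CD163_FL and 472 lower. This balance depended on the setting, with 345 higher and 286 lower without the top cell of each library and 209 and 206 among genes with 200 UMIs. By the naming rule the largest ratios upward included Car5b, a mitochondrial carbonic anhydrase, at 20.4 CPM in 163 members of CD163_FL and 1.54 CPM in 2 members of CD163_NC, and Ggt1, a glutathione-cleaving enzyme, at 25.7 CPM in 194 members and 3.07 CPM in 4. Ifitm1, an interferon-induced membrane protein, was at 92.7 and 6.92 CPM, and Rap1gap2, which switches off the small GTPase Rap1, at 29.0 and 3.07 CPM. For Ifitm1, 1 cell held 31.0% of the UMIs in CD163_FL, and 1 held 55.6% of the 9 UMIs in CD163_NC. Its log2 ratio of 3.74 was 0.71 (-0.35 to 2.04) in the CD8 class and 3.77 (1.90 to 6.83) in the CD4 class. Cadm1, an adhesion molecule, was at 19.4 CPM in CD163_FL and had 0 UMIs in CD163_NC, a ratio of at least 3.07 on the log2 scale with 3 counts as the floor per library and a counting interval that starts at 2.76. Cadm1 was seen in 24 members, 1 of which held 38.2% of its UMIs, and the bound was 2.38 without the top cells. Pde5a, Mmp10, Extl2 and Wdr95 were also named. Downward, Tnfsf8, the CD30 ligand, was at 48.2 CPM in 80 members of CD163_FL and 338 CPM in 37 members of CD163_NC, Tox2 at 12.9 and 93 CPM, and Ddx60, an interferon-induced helicase, at 4.85 and 44.6 CPM.

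Some named genes came mostly from 1 cell. Mcpt4, a mast cell protease, was at 14.6 CPM in CD163_FL and 0.769 CPM in CD163_NC, with 81.4% of its UMIs in 1 cell of CD163_FL, and its log2 ratio of 4.25 was 0.24 without the top cells. Edil3 had 50% of its UMIs in 1 cell of CD163_FL and Il22, a cytokine that acts on epithelium, 42.1%. In CD163_NC 1 cell held 96.1% of Penk, the enkephalin precursor, 83.3% of Csf2, the growth factor GM-CSF, 68.2% of Hes1, a Notch target, and 58.3% of Nckap5. Of all called genes, 8 of the 249 higher and 49 of the 472 lower had at least 50% of the UMIs of the higher library in 1 cell.

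Markers of other cells were present and not equal between libraries. Plasma cell genes summed to 4352 CPM in CD163_FL and 5504 CPM in CD163_NC, above the T cell marker list at 3940 and 4238 CPM, and Igha and Igkc had a UMI in every member. B cell genes summed to 549 and 628 CPM. Neutrophil genes summed to 4.17 CPM in CD163_FL and 158 CPM in CD163_NC. Of the 6 listed 4 were measured, and all 4 had intervals wholly past 1.5-fold lower, beside 4.15% of all measured genes. S100a9 was seen in 8 of 804 and 52 of 107 members, and Ly6g had 0 UMIs in CD163_FL and 1 in CD163_NC. Epithelial genes summed to 8.77 and 43.0 CPM, with Car4 at 0 in CD163_FL. Fibroblast genes summed to 25.2 CPM in CD163_FL, with 93.8% of the Dcn UMIs in 1 cell, and all 4 were at 0 in CD163_NC. Mast cell genes summed to 65.4 and 8.45 CPM, with 84.6% of the Mcpt1 UMIs of CD163_FL in 1 cell. Innate lymphoid genes summed to 53.8 CPM in CD163_FL and 119 CPM in CD163_NC. Of the 7 listed 4 were measured, and 3 had intervals wholly past 1.5-fold lower, beside 4.15% of all measured genes. For these 3 the top cell of CD163_NC held 93.8% of the Arg1, 46.2% of the Il1rl1 and 44.8% of the Hs3st1 UMIs. Natural killer genes summed to 13.1 and 12.3 CPM. The part of such other cells in the differences above was not tested.

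T cell receptor V segments gave a partial view of which receptors the dividing cells carried. The 3' reads reached a beta chain V segment in 183 of 804 members of CD163_FL (22.8%) and 27 of 107 of CD163_NC (25.2%), covering 22 and 14 of 35 segments. Trbv12-2 was the most frequent, in 31 of 183 cells (16.9%, 11.8 to 23.2%) of CD163_FL and 5 of 27 (18.5%, 6.30 to 38.1%) of CD163_NC. In non-cycling T cells it was seen in 158 of 492 (32.1%, 28.0 to 36.4%) and 45 of 245 (18.4%). Trbv16 was seen in 27 of 183 members of CD163_FL (14.8%, 9.95 to 20.7%), 21 of them in the CD8 class, and in 39 of 492 non-cycling T cells (7.93%, 5.70 to 10.7%). Members therefore spread over many segments, and clones cannot be counted from these reads.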

How the data were processed

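Single-cell RNA of CD45+ mouse gut lamina propria cells was measured in 2 libraries, grouped by their titles. The deposited values are UMI counts per gene and barcode; per the file headers, Cell Ranger 7.1.0 made them, and the submitters' processing notes name mm10 and Seurat 4. Correction for free RNA is not given in the sources used here. Members and gene lists were chosen with earlier results of these data known. Counts were summed over members per library and scaled to 1000000 UMIs (CPM). Ratios carry exact conditional binomial intervals, shares exact Clopper-Pearson intervals, and ratios of shares log-normal intervals. Genes needed 20 UMIs over both libraries. There was no test and no p-value, since each group is 1 library. The interval formula was checked on simulated Poisson counts, the model behind it. That check does not cover the clustering of UMIs in single cells seen here, so intervals can be too narrow. Named genes had at least 50 UMIs in the higher library, an interval wholly past 1.5-fold, 0.5 times or more of the gene's level in all barcodes, and one of the 12 largest or smallest ratios; mitochondrial, ribosomal, Y-linked and antigen receptor genes, Xist and Tsix were left out, and other X-linked genes were not. Within lists, up to 6 abundant genes and those past 1.5-fold were eligible. Doublets were called with Scrublet and left in. Cells were thinned to 3000 UMIs for comparisons across depths. Alternatives changed thresholds, depth, doublets, classes and scaling. Python 3.11.15, numpy 2.4.6, scipy 1.17.1 and scanpy 1.11.5 were used. Some listed genes are not reported here.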

Additional observations from a re-analysis of the deposited data

Results flagged for a closer look

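In 5 comparisons the libraries ran in opposite directions at full depth. With 1 library each, none of these differences was tested. The cycling share of the CD8 class over that of the CD4 class was 1.47 in CD163_FL and 0.847 in CD163_NC, and the interval of the second spans 1. In cells thinned to 3000 UMIs the CD8 class was above the CD4 class in both libraries. The shares were 6.76% and 4.47% in CD163_FL and 2.75% and 1.82% in CD163_NC. Itgae, an integrin, had a log2 ratio of cycling over non-cycling T cells of -1.12 in CD163_FL and 0.93 in CD163_NC, from 59 and 14 members with a UMI. Il1rl1, the interleukin 33 receptor, had -0.64 in CD163_FL and 1.44 in CD163_NC, where 1 cell held 46.2% of its UMIs. Lrrc32, a regulatory T cell surface protein, had -2.27 and 1.10, from 5 and 10 members. Il5 had -2.59 in CD163_FL and 2.65 in CD163_NC, where a single member held all its UMIs.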

How the results depend on the processing

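No paired analysis was possible because each group holds 1 library, and for the same reason no library could be left out. The ratio of cycling shares of barcodes, 5.23, was 3.51 with a minimum of 2 Mki67 and Top2a UMIs, 6.92 with a minimum of 5, 4.23 with up to 1 UMI of Cd79a, Epcam and Lyz2, and 2.02 in cells thinned to 3000 UMIs with 1 UMI needed. Among T cells, 3.18 became 2.13, 4.20 and 1.35 at minima of 2 and 5 and in thinned cells with 1 UMI. The CD8 share ratio of members, 2.75, was 1.32 and the cycling ratio within the CD8 class, 4.72, was 2.46 in thinned cells; the cycling ratio within the CD4 class, 2.72, was 4.16 at a minimum of 5. The pooled G2/M share of CD163_FL was 49.4% in the CD8 class and 49.7% at a minimum of 5, and that of CD163_NC 56.1% at a minimum of 5. Of 1561 genes at least 1.5-fold higher, 761 had 200 UMIs. The 1960 lower ones became 3980 with no minimum, 1284 after thinning, 542 with 200 UMIs and 1246 without each gene's top cells. Genes with an interval past 1.5-fold between cycling and non-cycling cells numbered 807 higher and 214 lower in CD163_FL and 313 and 37 in CD163_NC after thinning, against 1292, 526, 716 and 164 at full depth. In 60 of 82 such settings the value stayed within its interval or its 1.5-fold range. Among the 82, no ratio of shares changed direction, and gene counts and G2/M shares were not scored for direction. The balance of higher to lower genes did turn, with 1648 higher after thinning and 2245 without top cells, both above the lower counts.

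Of 81 named or listed genes, 546 of 686 log2 ratios stayed past 1.5-fold with their interval, 125 did not and 15 changed sign. Within the CD8 class these were Extl2 (-0.66), Hes1 (1.31), Cdkn1a (0.36), Tox (1.18), Ikzf2 (0.033), Ccr7 (0.036) and Bcl2 (0.35). Within the CD4 class these were Csf2 (1.78), Hes1 (0.39), Nckap5 (2.43), Xcl1 (0.74) and Il1rl1 (2.18). Edil3 was -0.19 in thinned cells, and Csf2 and Hes1 were 2.60 and 1.5 with 3 Cd3 UMIs needed. Fewer cells or UMIs are behind each of these values, and the cause was not tested. The settings that left out top cells, needed 200 UMIs, or used 5 Mki67 and Top2a or 3 Cd3 UMIs for genes, and the thinned G2/M share, were chosen after seeing the data. The 107 members of CD163_NC limit precision, and genes under 20 UMIs were not compared.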
